A study of Rattus norvegicus with 8 samples.

Results

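The cytosolic ribosomal proteins are the protein components of the small (Rps genes) and large (Rpl genes) subunits of the ribosome. On the rat array used here they were the probes, controls left out, whose gene name began with Rpl or Rps followed by a digit, with Rplp0 to Rplp2 or with Rpsa, without the S6 kinases (Rps6k). The rule found 71 of the 12553 gene names on the array, read by 96 of its 15207 probes: 43 probes of 30 small-subunit genes and 53 probes of 41 large-subunit genes. It found no probe of Rplp0.

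Nearly all of these proteins are needed once in each ribosome, so their mRNAs are among the most abundant of most cells and are made in step with ribosomal RNA. Their translation is switched with growth signals through mTOR, which acts on a run of pyrimidines at the start of these mRNAs, and neurons also carry many of these mRNAs into dendrites and axons. Several members have a role outside the ribosome: Rps6 is a substrate of S6 kinases and is widely used to mark active neurons, Rps27a is made as a fusion with ubiquitin, and Rpl5 and Rpl11 bind Mdm2, the ligase that degrades p53.

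Whole hippocampi of rats aged 2 months were profiled, with 4 samples that had received fluoxetine, a selective serotonin reuptake inhibitor, as pups (PNFLX, 10 mg/kg) and 4 that had received the vehicle, a 5% sucrose solution (control). Treatment ran between postnatal days 2 and 21 per the protocol. The sample descriptions give end days from 21 up to 28, one for each sample, and the protocol was followed. Strain, sex, litter and drug route are not given in the sources used here, and nothing says that each sample came from a separate animal, so p-values measure only the spread between these samples. Each sample was labelled with Cy3 and hybridised to 1 single-colour array of 60-base probes laid out in spot rows and 82 spot columns, and with 4 arrays in each group the precision is limited.

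A single slide carried the 8 arrays, the controls in the first row of arrays and the PNFLX samples in the second, so that slide row and treatment cannot be told apart. The 75th percentile of probe signal was 923, 941, 873 and 933 on PNFLX 1 to 4 and 706, 880, 764 and 654 on controls 1 to 4. The ends of the arrays stood apart. The median log2 difference, PNFLX minus control, was 0.75 over the 267 tested probes of spot rows 1 to 5 and -0.79 over the 277 tested probes of the last 5 rows (together called the end rows), against -0.03 over all 11600 probes tested. In whole tissue, fewer cells of a type and less RNA per cell cannot be told apart.

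The probes that the results turn on are shown first, as the array design gives them on rat build rn4, to make clear what each spot could bind. The first 30 bases are given of the Rps26 probe, which sits in 2 copies at chr7:1919153-1919212, and of the Rps27a probe at chr14:110585972-110586031. Both Rps15a probes are given whole, at chr1:176466571-176466630 (row 191) and chr1:176461190-176461249 (row 25). All are written 5′ to 3′, with no base marked.
Rps26, rows 6 and 17: gtgatttcatgaagacagaaagaaaaatac
Rps27a, row 3: ctgcttcaacaaaccagaagacaagtagtt
Rps15a, row 191: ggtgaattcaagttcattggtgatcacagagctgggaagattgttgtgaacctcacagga
Rps15a, row 25: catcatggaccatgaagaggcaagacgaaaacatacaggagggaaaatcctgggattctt

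Values below are log2 of the processed signal minus the log2 of the array's 75th percentile, called the scaled log2 signal, so a value of 0 is a signal at that percentile. All 96 ribosomal protein probes were tested and 95 were well above background on all 8 arrays. Between PNFLX and control, 2 of the 96 passed a limma adjusted p of 0.05, where 0.672% of all probes did (78 of 11600). Both were higher in PNFLX, Rps26 in row 6 and Rps27a in row 3, where 0.371% of all probes were called higher. No ribosomal protein probe was called lower, where 0.302% of all probes were. Calls gathered in the end rows. Rows 1 to 5 held 33 of the 43 probes called higher, among 267 tested there. The last 5 rows held 20 of the 35 called lower, among 277 tested there. Limma also called 2 of the 96 with quantile normalization (0.853% of all probes) and 2 with no scaling between arrays (1.23%), and 1 of 71 when each gene kept its brightest probe (0.508%). At an unadjusted p under 0.05 there were 15 probes, 5 higher and 10 lower, against 12.5% of all probes (5.09% higher and 7.4% lower). On the spots without an outlier flag the 2 groups did not overlap for 20 ribosomal protein probes, 7 higher and 13 lower, against 10.7% of all probes (4.33% higher and 6.41% lower). Dropped spots left some of the 20 with fewer arrays, Rps27a with 1 control, and fewer arrays make overlap less likely. Flags took 4.17% of the family's spots, against 0.428% of all spots, so the 2 shares are not a like comparison. Of the 20 probes, 5 were saturated on every array of a group.

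The family as a whole lay slightly lower in PNFLX at this scaling. In PNFLX 33 probes were higher (34.4%, against 45.5% of all probes) and 63 lower. The median log2 difference was -0.12, with quartiles of -0.28 and 0.06, beside -0.03 over all probes. It was -0.15 over the small-subunit probes, 13 of 43 higher, and -0.10 over the large-subunit probes, 20 of 53 higher. Without the end rows it was -0.13 over 90 probes.

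The sign of that median turned with the processing. With normexp background correction it was 0.14 over the ribosomal protein probes and -0.38 over all probes, with 69 of the 96 higher, and with no scaling between arrays it was 0.18 and 0.26, with 74 higher. With quantile normalization it was -0.03 for both, with 44 higher. Normexp changed the background step and kept the 75th percentile scaling. The family's median minus that of all probes was 0.52 under normexp and 0.006 with quantile normalization. It was -0.09 both under 75th percentile scaling and with no scaling, and negative in every other setting. No direction common to the settings tried was seen for the family.

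**Figure D1:**
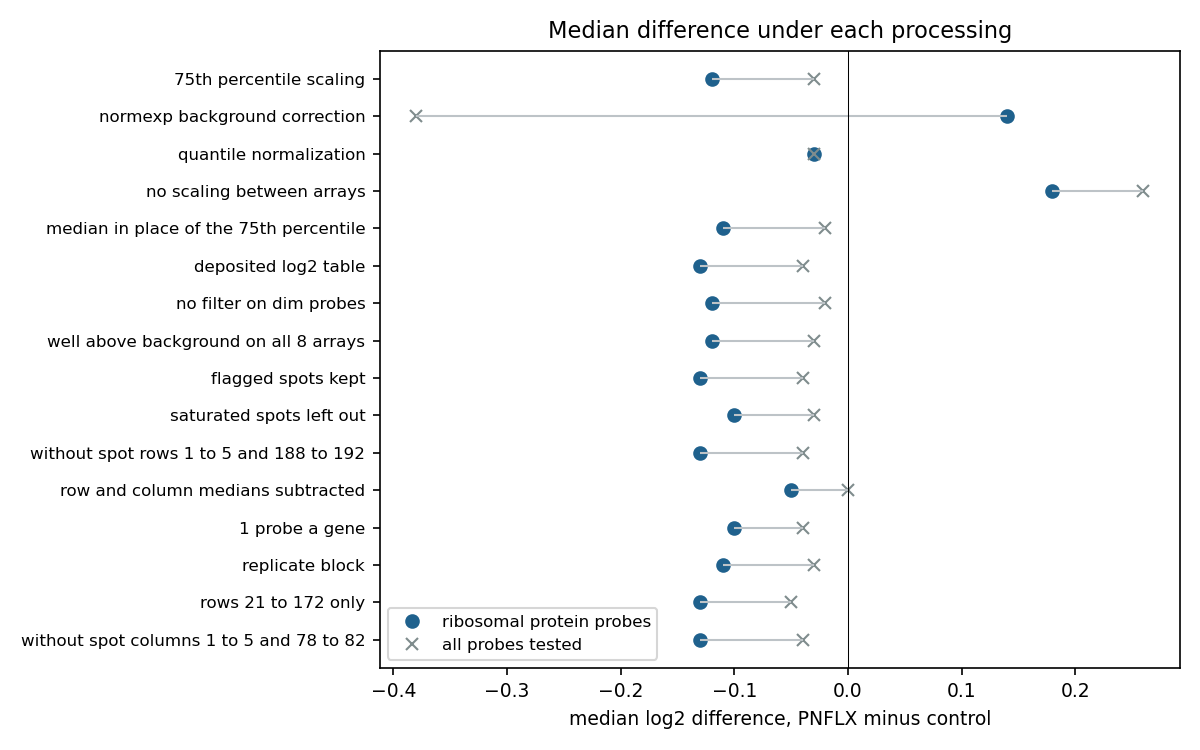
Median log2 difference, PNFLX minus control, on the horizontal axis for each processing on the vertical axis. Circles are the ribosomal protein probes and crosses are all probes tested; the circles run between -0.13 and 0.18 and lie right of 0 under normexp and with no scaling.

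Rps26, a small-subunit protein at the channel where mRNA leaves the ribosome, gave the family's largest differences outside the end rows. Its 60-base probe was spotted in 2 copies. In row 6 the scaled log2 signal was 2.11, 2.96, 2.75 and 1.63 in PNFLX 1 to 4, against -2.87, -1.22, -1.87 and -3.56 in controls 1 to 4. In row 17 it was 2.58, 2.31, 2.54 and 2.24 in PNFLX 1 to 4, against 1.10, 1.15, 0.81 and -0.71 in controls 1 to 4. The groups did not overlap on either copy, and control 4 was the lowest of the 8 arrays on both.

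On the copy in row 6, PNFLX averaged 2.36 ± 0.61 and control -2.38 ± 1.04 (SD, n = 4 each), a log2 difference of 4.74 (SE 0.52, limma adjusted p = 0.00899) or 26.8-fold. On the copy in row 17, PNFLX averaged 2.42 ± 0.16 (SD, n = 4) and control 0.40 ± 0.97 (SD, n = 3, the spot of control 2 having an outlier flag), a log2 difference of 2.02 (SE 0.41) that did not pass (limma adjusted p = 0.0996). With normexp, where 0.431% of all probes passed, the second copy did too, at 2.59 (limma adjusted p = 0.0346). It did not pass with the replicate number as a block, at 2.05 (limma adjusted p = 0.235). Nor did it pass with 1 probe a gene, where it was the Rps26 probe kept (2.02, limma adjusted p = 0.0987). The copies were therefore on the same side but differed by 2.73, the largest gap among the 1776 pairs of identical probes on the array with no copy in the end rows.

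Position was measured beside it. The median difference of all probes was 0.27 in row 6 (median absolute deviation 0.45) and -0.12 in row 17 (0.33). After each array's row and column medians were subtracted, the difference of the row 6 copy was 4.76 (limma adjusted p = 0.000859), with 0.207% of all probes called. The same subtraction left 1.70 on the row 17 copy, which did not pass (limma adjusted p = 0.318). Without the end rows the difference of the row 6 copy was again 4.74, with a limma adjusted p of 0.0952. In that setting limma called 0 of 11056 probes (0%), of which 1236 had an unadjusted p under 0.05. The probe held 26.7% G and C, against a median of 45% over all probes. The part of position or of probe composition in the Rps26 difference was not tested.

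Rps27a, whose product is cut into ubiquitin and a small-subunit protein, was called in row 3, where all tested probes had a median difference of 0.81. The scaled log2 signal was 6.23, 6.11, 5.85 and 5.88 in PNFLX 1 to 4, against 0.72, 3.41, 2.80 and 1.11 in controls 1 to 4. Every PNFLX value was higher than every control value. The spots of controls 2, 3 and 4 had an outlier flag and were left out, so the log2 difference of 5.30 (SE 0.26, limma adjusted p = 0.00275) rested on 1 control array. With the replicate number as a block it was 5.51 and did not pass (limma adjusted p = 0.214). With those spots kept it was 4.01 (limma adjusted p = 0.0295), and with row and column medians subtracted 3.78 (limma adjusted p = 0.0186). Without control 1 it could not be estimated. Rps27a has no other probe here, so no copy away from the end rows was measured.

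**Figure D2:**
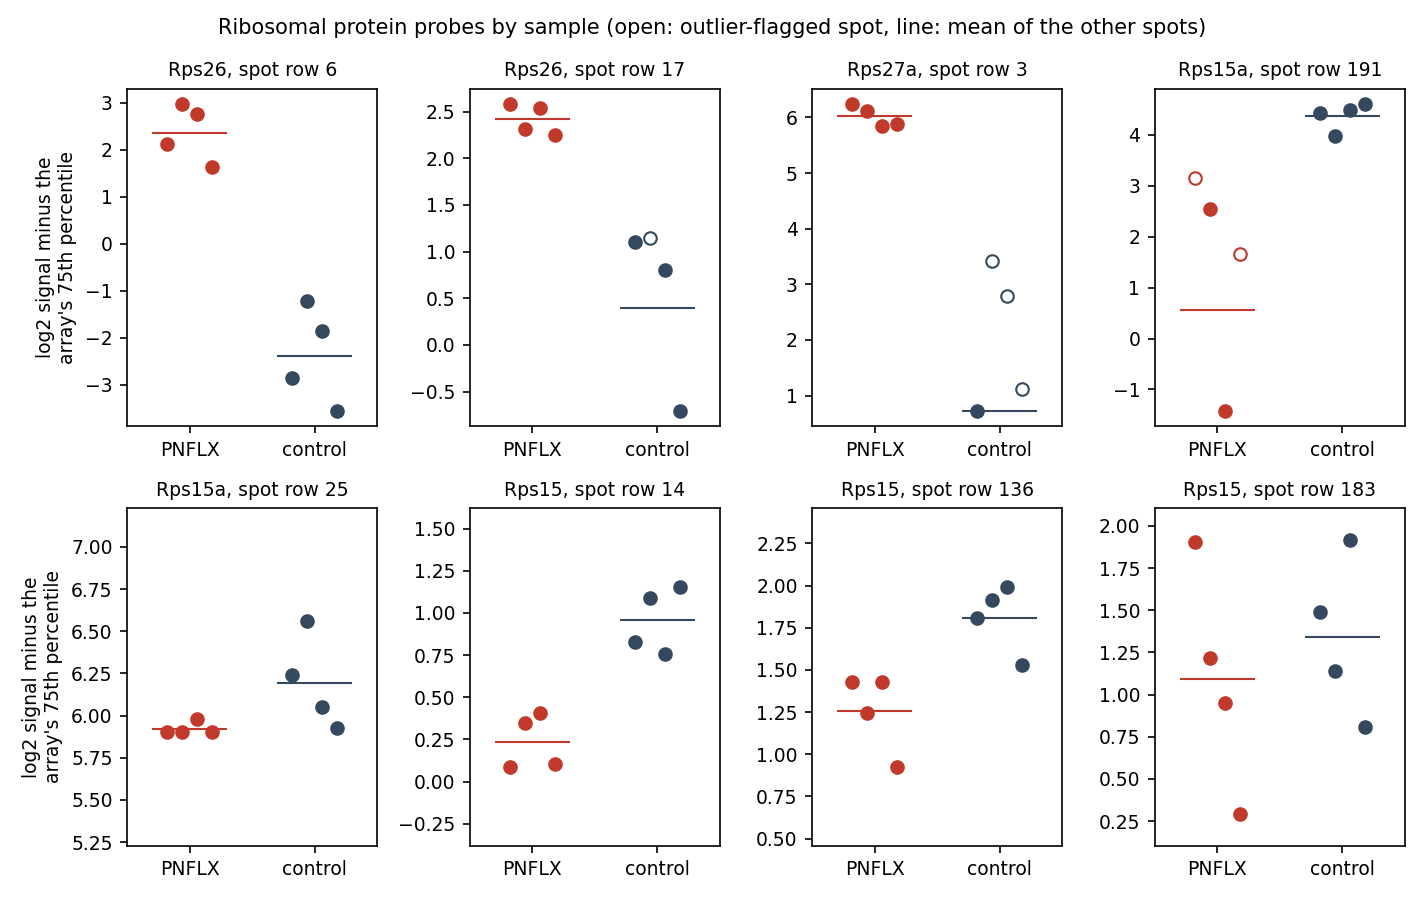
Scaled log2 signal (vertical axis) of 8 ribosomal protein probes in the 4 PNFLX samples (left, red) and the 4 control samples (right, dark). Open points are spots with an outlier flag, the line is the mean of the other spots, and vertical scales differ between panels; the groups do not overlap for Rps26, Rps27a, Rps15a in row 191 and Rps15 in rows 14 and 136.

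Rps15a, a small-subunit protein that binds ribosomal RNA, showed the opposite side at the other end of the array. In row 191 its scaled log2 signal was 3.14, 2.55, -1.43 and 1.67 in PNFLX 1 to 4, against 4.42, 3.98, 4.48 and 4.60 in controls 1 to 4. The groups did not overlap, but the PNFLX values spread over more than 4 log2 units and those of PNFLX 1 and 4 had an outlier flag. The log2 difference was -3.81 (SE 0.99, limma adjusted p = 0.207), in a row where all probes had a median of -1.31. Without PNFLX 2 a single PNFLX array was left and the difference was -5.80 (limma adjusted p = 0.00452); without PNFLX 3 it was -1.82. The second Rps15a probe, in row 25, lies elsewhere in the gene and was saturated on 1 PNFLX array. It gave 5.90, 5.90, 5.98 and 5.90 in PNFLX, against 6.24, 6.56, 6.05 and 5.92 in control, a difference of -0.27 (SE 0.16) with overlapping groups.

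The other ribosomal protein probes in the end rows did not pass. Rpl3, a large-subunit protein near the peptidyl transferase centre, had -2.82, -2.82, -2.53 and -5.33 in PNFLX and -4.60, -4.11, -4.35 and -4.22 in control in row 3, a log2 difference of 0.94 (SE 0.57). Without PNFLX 4 it was 1.60 (limma adjusted p = 0.0172), and with row and column medians subtracted -0.22. Its second probe, in row 20, gave -0.39 (SE 0.14, limma adjusted p = 0.332), or 0.08 with its outlier-flagged control spot kept. That probe was far brighter, with means of 3.78 in PNFLX and 4.17 in control, against -3.37 and -4.32 in row 3. The row 3 probe lists no RefSeq transcript and has no genome position, so its values may not be those of Rpl3 mRNA. Rpl37 in the fifth row from the end read -4.07, -1.68, -1.37 and -2.48 in PNFLX, against -1.80, -2.22, -1.67 and -1.01 in control, a difference of -0.72 (SE 0.57). PNFLX 1 was the lowest, and without it the difference was -0.17. Rpl9 in that same row and Rps23 in row 189 were saturated on all 4 control arrays, and no difference is given for them.

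**Figure D3:**
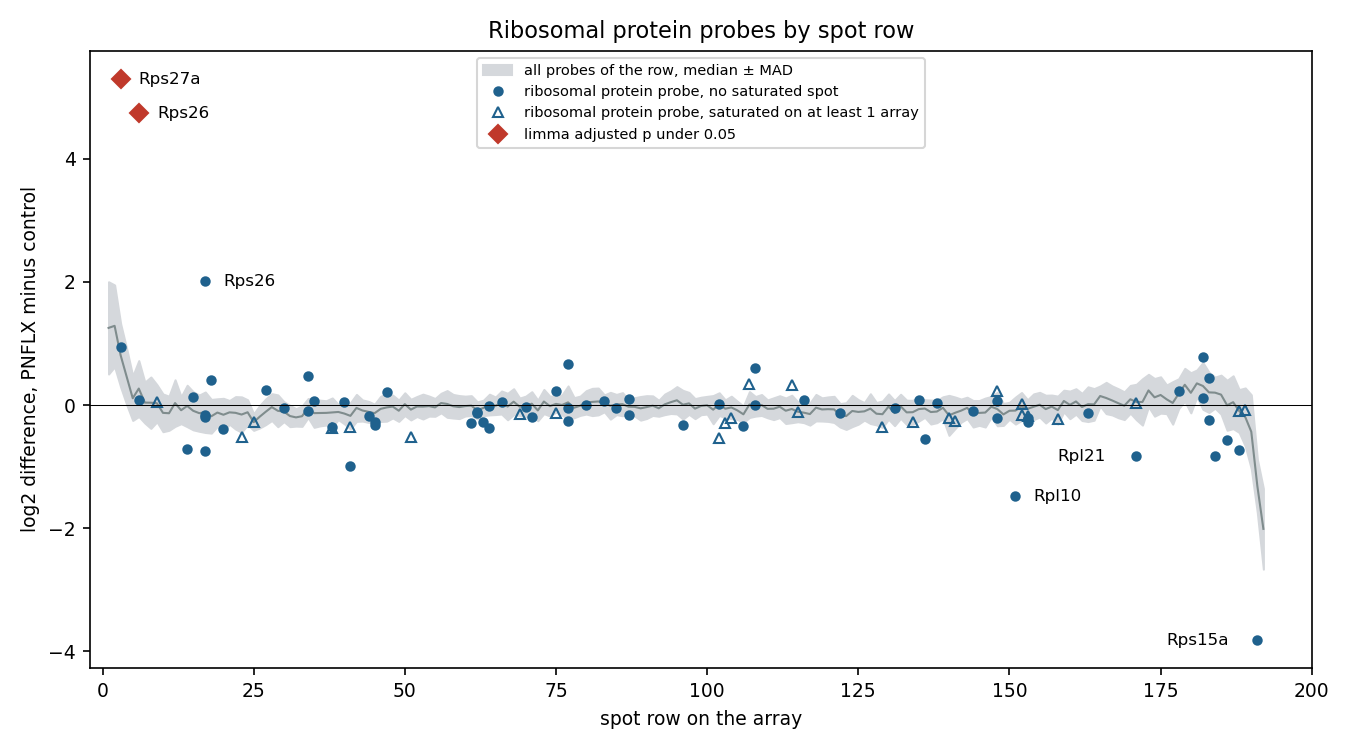
Log2 difference, PNFLX minus control (vertical axis), of each of the 96 ribosomal protein probes by spot row (horizontal axis), over the median and median absolute deviation (MAD) of all probes tested in each row. Diamonds are the 2 probes called by limma, in rows 3 and 6, and triangles are probes with a saturated spot; the row medians run up to 1.29 at the low-numbered end and down to -2.01 in the last row.

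Among the remaining small-subunit probes none passed limma's adjusted threshold. Rps15, which contacts transfer RNA near the decoding site, was read by 3 spots. In row 14 the scaled log2 signal was 0.09, 0.35, 0.41 and 0.11 in PNFLX 1 to 4, against 0.83, 1.09, 0.76 and 1.16 in controls 1 to 4. The groups did not overlap and the log2 difference was -0.72 (SE 0.15, limma adjusted p = 0.0927), or 0.02 under normexp. That probe, at chr7:10927645-10927704, lies on the strand opposite to the other Rps15 probe in the files' coordinates.

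The other Rps15 probe, whose coordinates span 370 bases at chr7:10928409-10928778, was spotted in 2 copies, in rows 136 and 183. In row 136 it read 1.43, 1.25, 1.43 and 0.93 in PNFLX, against 1.81, 1.92, 1.99 and 1.53 in control, a log2 difference of -0.55 (SE 0.17, limma adjusted p = 0.238). In row 183 it read 1.90, 1.21, 0.95 and 0.29 in PNFLX, against 1.49, 1.14, 1.92 and 0.81 in control, a log2 difference of -0.25 (SE 0.36). All 3 Rps15 spots lay lower in PNFLX at this scaling, with overlapping groups on the last. The labelling used oligo-dT primed cRNA, per the labels' protocols, so the labelled strand is the complement of the mRNA and only a probe with the mRNA's own letters can bind it. By the files' coordinates 1 probe each of Rps15 (row 14) and Rpl37 (in the end rows) ran against the other probes of its gene, and their values may not be those of the named mRNA.

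Rps19, the gene most often mutated in human Diamond-Blackfan anaemia, had a log2 difference of -0.03 (SE 0.17), from 4.66, 4.67, 4.77 and 5.11 in PNFLX against 5.11, 4.59, 4.88 and 4.76 in control. Rpsa, also known as the precursor of the laminin receptor, had 0.05 (SE 0.25), with 3.01, 2.99, 3.08 and 2.81 in PNFLX against 2.15, 3.18, 3.24 and 3.11 in control. For both genes the groups overlapped. Rps6, the S6 kinase substrate, was saturated on all 8 arrays, so its level could not be compared.

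Of the 5 large-subunit probes named for their small p away from the end rows, Rpl34 was the one with higher PNFLX values. It read 4.54, 4.62, 4.50 and 3.15 in PNFLX, against 3.56, 4.19, 2.41 and 3.09 in control, where the spots of PNFLX 4 and of controls 3 and 4 had an outlier flag. On the other spots the log2 difference was 0.67 (SE 0.25, limma adjusted p = 0.368), and 0.36 without control 1. With the outlying spots included the groups overlapped.

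Rpl11 and Rpl5 form a particle with 5S ribosomal RNA before it joins the large subunit. Rpl11 read 5.26, 5.33, 5.63 and 5.57 in PNFLX, against 5.81, 5.81, 5.78 and 5.66 in control, a log2 difference of -0.32 (SE 0.13, limma adjusted p = 0.38) without overlap. Rpl5 read 4.02, 3.80, 3.93 and 3.91 in PNFLX, against 4.36, 3.86, 3.97 and 3.99 in control, a log2 difference of -0.13 (SE 0.15) with overlap. Under normexp both differences were above 0, at 0.32 for Rpl11 and 0.20 for Rpl5.

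Rpl22, a large-subunit protein that cells can do without, had a log2 difference of -0.01 (SE 0.17). Rpl13a, which human myeloid cells release from the ribosome to silence inflammatory mRNAs, was saturated on 3 PNFLX arrays, and the spot of control 1 had an outlier flag. Its log2 difference was 0.05 (SE 0.15) without that spot, 1.11 (SE 0.91) with it and 0.27 with the saturated spots left out, so its size was not settled. Rplp2, of the stalk that recruits elongation factors, had 0.05 (SE 0.20) on 3 arrays in each group, and its partner Rplp1 was saturated on all 8 arrays. Rpl3l and Rpl10l, paralogues used mainly in striated muscle and testis, gave differences of 0.13 (SE 0.16) and -0.04 (SE 0.14) for the 2 copies of Rpl3l and 0.60 (SE 0.36) for Rpl10l. None of these passed, and in each the groups overlapped.

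Several large-subunit genes were measured by more than 1 probe. Over the family 21 genes had 2 or more probes, 46 in all, and for 8 of the 21 every probe lay on the same side of 0. Rpl10, which joins the large subunit among the last, read 4.98, 5.24, 5.25 and 5.82 in PNFLX, against 5.44, 5.41, 5.59 and 5.55 in control, on its probe in row 44 (difference -0.18, SE 0.19). On its probe in row 151 it read -0.46, 4.68, 4.75 and 4.40 in PNFLX, against 4.99, 4.69, 5.02 and 4.56 in control (difference -1.47, SE 1.09), so that PNFLX 1 alone lay far below the rest, and without it the difference was -0.20.

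Rpl27 differed in sign between its probes at this scaling. In row 45 it read 3.59, 3.57, 3.68 and 3.84 in PNFLX, against 4.12, 3.83, 3.98 and 3.84 in control (difference -0.27, SE 0.13). In row 182 it read 4.80, 4.61, 4.65 and 4.75 in PNFLX, against 4.49, 4.16, 4.48 and 2.58 in control (difference 0.77, SE 0.40), where the groups did not overlap and control 4 was the lowest. Without control 4 the difference was 0.32. All tested probes had a median difference of -0.13 in row 45 and 0.31 in row 182. With row and column medians subtracted both Rpl27 differences were above 0, at 0.17 and 0.58. Both were also above 0 under normexp and with no scaling, while quantile normalization gave -0.26 and 0.81. Rpl15 in row 17 had 4.42, 4.02, 4.32 and 3.91 in PNFLX, against 2.99, 5.36, 4.04 and 4.46 in control, with outlier flags on controls 1 and 3. Its difference was -0.75 (SE 0.30, limma adjusted p = 0.385) on the other spots and -0.05 with those spots kept. Leaving out single arrays moved it to between -1.20 without control 4 and -0.30 without control 2. The difference of its probe in row 182 was 0.12 (SE 1.19). The limma test called none of the probes of Rpl10, Rpl27 and Rpl15.

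The remaining 31 probes were each the single probe of their gene, and 5 of them, Rps28 among them, had a saturated spot. The 26 with no saturated spot ran between -0.37 (Rpl10a) and 0.60 (Rpl10l) with a median of -0.08, 10 higher and 16 lower in PNFLX. The smallest limma adjusted p among these was 0.404, and the groups did not overlap for 1 of them, Rpl6, with 4.67, 4.98, 4.95 and 4.71 in PNFLX against 5.02, 5.11, 5.03 and 5.25 in control (difference -0.28, SE 0.13). Others of the 31 were Rps2, Rps3 and Rps9 of the channel where mRNA enters the small subunit, with differences of 0.22 (SE 0.17), -0.12 (SE 0.12) and -0.21 (SE 0.12). Rpl4 and Rpl39 of the tunnel through which the new protein leaves had 0.02 (SE 0.16) and 0.09 (SE 0.29).

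Saturation set the upper end of the family. Of the 96 probes 26 (27.1%) were saturated on at least 1 array, against 0.809% of the 15207 probes on the array (123). The 9 saturated on all 8 arrays included Rpl14, Rpl41, Rps6, Rpl23, Rpl32, Rplp1, Rps16 and Rpl37 (row 171), out of 36 such probes in all. Of 384 ribosomal protein spots in each group, 75 were saturated in PNFLX and 61 in control.

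The differences of the 9 probes saturated throughout depended on the scaling. Over these the median log2 difference was -0.22 scaled (-0.51 to 0.04) and 0.08 unscaled (-0.21 to 0.34), while the log2 of the 75th percentile was 0.30 higher in PNFLX. In all, 16 probes were saturated on every array of at least 1 group, and 15 of them lay lower in PNFLX after scaling. No fold is given for them: besides the 9 they were Rps3a (row 51), Rps20, Rps23 in 2 spots, Rps18, Rpl37 (row 152) and Rpl9. The 70 probes with no saturated spot had a median of -0.07, with 27 higher and 43 lower.

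Identical probes in 2 copies gave a measure of agreement on the same arrays, limited where spots were saturated. The family held 10 such pairs, with a median gap between the copies' log2 differences of 0.28, against 0.22 over all 1945 pairs. The pairs of Rpl37, Rps3a and Rps23 held a spot saturated on every array of a group. Their gaps, 0.19, 0.15 and 0.14, do not measure agreement. They are counted in the family's median of 0.28 and lie below it, so that median understates the gaps of the other pairs. The gap was over 1 log2 unit in 2 of the 10 pairs, Rps26 (2.73) and Rps13 (1.46), and in 205 of the 1945 pairs. Both copies lay on the same side of 0 in 4 of 10, the saturated pairs of Rps3a and Rps23 among the 4, against 1252 of the 1945 pairs. Over the 169 pairs on the array with a copy in the end rows the median gap was 1.16, and 56.2% were over 1.

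Among these pairs, single arrays stood apart for Rps13, of the small subunit. In row 41 it read 3.83, 3.79, 1.32 and 3.08 in PNFLX, the last with an outlier flag, against 4.05, 3.84, 4.13 and 3.85 in control, a difference of -0.99 (SE 0.59). Its copy in row 34 read 4.10, 3.81, 3.97 and 4.51 in PNFLX, against 4.00, 2.65, 4.02 and 3.83 in control, a difference of 0.47 (SE 0.32). PNFLX 3 was low on one copy and control 2 on the other. Without PNFLX 3 the row 41 difference was -0.16, and without control 2 the row 34 difference was 0.15.

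**Figure D4:**
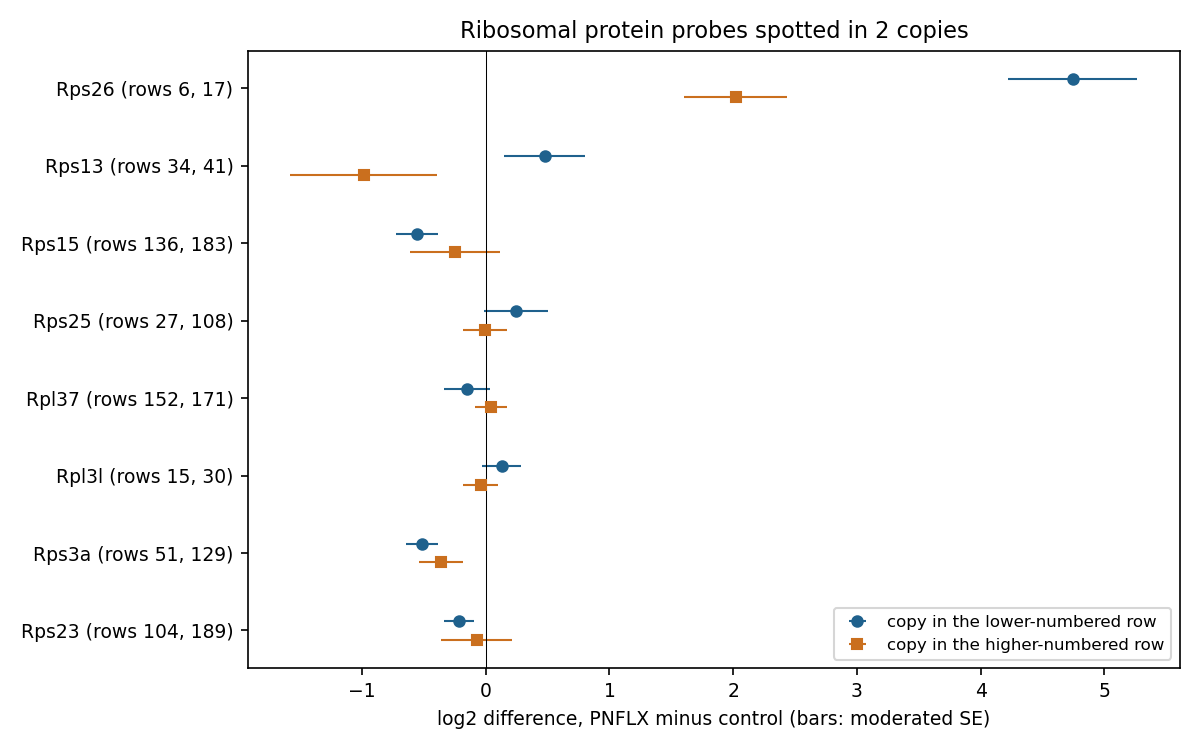
Log2 difference, PNFLX minus control (horizontal axis, bars are moderated standard errors), of 8 of the 10 ribosomal protein probes spotted in 2 copies, listed by gene and spot rows. Both Rps26 copies lie above 0, at 4.74 and 2.02, while those of Rps13 lie on both sides, at 0.47 and -0.99. The pairs of Rpl37, Rps3a and Rps23 include spots saturated throughout a group, whose plotted differences are not to be read as folds.

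Outlier flags fell on 32 spots of 16 ribosomal protein probes, 13 in PNFLX and 19 in control. They made up 4.17% of the family's spots, against 0.428% of all spots. Of the 12 ribosomal protein probes in spot columns 1 to 5 and 78 to 82, 7 had such a spot. Rps25 was one case: in row 27 it was left with 1 control array (difference 0.25, SE 0.26, or 1.34 with the outlier-flagged spots kept), and its copy in row 108, with no flag, gave -0.01 (SE 0.18).

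Other genes of protein synthesis were listed for comparison. The mitochondrial ribosomal proteins had 73 probes tested, 33 higher and 40 lower with 0 called by limma and a median log2 difference of -0.04. The lowest p among them was that of Mrpl49, at -0.99 (SE 0.21, limma adjusted p = 0.0984). None of those 73 probes was saturated. Of 50 probes of initiation and termination factors 24 were higher and 26 lower, 0 were called by limma and the median was -0.00; Eif3d, a cap-binding subunit of the scanning complex, had -0.89 (SE 0.16, limma adjusted p = 0.0551). The 8 probes of elongation factors had 5 higher, 3 lower and 0 called.

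Ribosome biogenesis genes had 41 probes, 17 higher and 24 lower, with 1 called lower, Nifk, a nucleolar partner of Ki-67, at -4.27 (SE 0.17, limma adjusted p = 2e-05) in the last row. Of 23 probes of S6 kinases and the mTOR pathway 11 were higher and 12 lower, with 1 called lower, Pdcd4, an inhibitor of initiation, at -5.04 (SE 0.37, limma adjusted p = 0.00073), also in the last row. All tested probes of the last row had a median difference of -2.01. Of the 277 probes tested in the last 5 rows, limma called 20 lower. Rps6kb1, the main S6 kinase, had 0.62 (SE 0.17, limma adjusted p = 0.18) in row 179, where all tested probes had a median of 0.33. The RNA polymerase I list had 6 probes, 2 higher and 4 lower, with 0 called. Partners of the ribosome and other ubiquitin genes had 20 probes, 7 higher and 13 lower, 0 called, and a median of -0.19. A saturated spot was found for 5 of these 20. Among them Ubb, which encodes polyubiquitin, had -1.31 (SE 0.38, limma adjusted p = 0.207). That probe was dim, with a mean scaled log2 signal of -5.77 in PNFLX and -4.45 in control. Tpt1, whose mRNA also starts with a pyrimidine run, had -0.51 (SE 0.14, limma adjusted p = 0.225).

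Cell type markers were read beside these values. Of 9 tested probes of hippocampal neuron markers 8 were well above background on all arrays, with 4 higher and 5 lower and 0 called. All 8 oligodendrocyte probes lay lower in PNFLX (median -0.28, 0 called) and all 4 blood probes higher (median 0.47, 0 called). The median deviation of the oligodendrocyte list from the probes' means ran between -0.52 and 0.28 over PNFLX arrays and between -0.15 and 0.38 over control arrays. The blood list ran between -0.08 and 0.61 over PNFLX arrays and between -0.32 and -0.06 over control arrays. The 10 meningeal probes (7 higher, median 0.16), the 8 astrocyte probes (3 higher), the 10 microglial probes (2 higher), the 7 endothelial probes (2 higher) and the 3 choroid plexus probes (0 higher) held 0 called probes. The part of cell makeup in the ribosomal protein values was not tested.

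The probes had features that the gene names did not fix. Of the 96 probes 41 (42.7%) listed 2 or more RefSeq accessions, against 20.2% of all probes, and ribosomal protein genes have many processed copies in mammalian genomes, so a probe may not tell a gene from its copies. The coordinates of 21 of the 96 probes spanned more than the probe's own length, that is, they were not on 1 unbroken stretch of the genome. Of all 15207 probes 3305 did, a similar share. In the RefSeq start windows of assembly GRCr8, 58 of the 71 genes matched 59 windows, and 23 of these (39%) had a C at the annotated start followed by at least 4 C or T, on the gene's own strand. Of all 33469 windows 2.63% did. A match describes these letters only.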

How the data were processed

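Intensity values of each spot (processed signal, mean and local background) and flags for background, saturation and outliers were deposited by the authors as Agilent Feature Extraction made them, with background subtraction and detrending inside each array, per the file headers. The log2 table that the authors deposited matched the scanner values, once log2 signals were scaled to the 75th percentile and centred on the probe's median over the arrays, within 0.00242. Its column medians were -0.04, -0.07, 0.10 and -0.13 for PNFLX 1 to 4 and 0.06, -0.05, 0.04 and 0.04 for controls 1 to 4.

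Groups and replicate numbers came from source names. Each array's log2 processed signals were scaled to their 75th percentile, taken over all 15207 non-control probes. Spots flagged as outliers (521) were dropped, and probes well above background on at least 4 arrays were kept (11600). Each probe was fitted on its own with limma 3.58.1 in R 4.3.3 (group only, empirical Bayes, Benjamini-Hochberg over the 11600, threshold 0.05). SE is the moderated standard error. Positions are the files' own, on rn4, without exon annotation. RefSeq tables of assembly GRCr8 served for names and start windows.

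The probes, the gene lists and the tests were chosen with earlier results of these data known. Named were the probes called, those in the end rows, the 12 of smallest p elsewhere, Rps27a, Rps6, Rpsa, Rps19, Rpl5, Rpl11, Rpl13a and Rpl22 in any case, probes saturated on all arrays of a group, genes with several probes, and up to 3 probes of each other list; Rplp2, Rpl10l, Rps28, Rpl10a, Rpl6, Rps2, Rps3, Rps9, Rpl4, Rpl39 and the features of probe composition were added after their values were seen. Some members are counted in the totals but are not reported here by name. Alternatives covered background correction, scaling, filters, flags, saturation, spot position, 1 probe a gene (the brightest), the replicate block and leaving out each array. The fit was tested on simulated data. Same-numbered samples deviated together with correlations of 0.0115, 0.0849, 0.0906 and 0.0206, against -0.0769 to 0.0334 between different-numbered samples. These values do not settle whether the numbers mark pairs. The numbers were not taken as pairs, and the replicate block is given as an alternative.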

Additional observations from a re-analysis of the deposited data

Results flagged for a closer look

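In 11 groups of 4 samples of a named ribosomal protein probe, 1 sample stood apart from the other 3, beyond the 95% limit of Dixon's test. Of these, 7 were on the low side and 4 on the high side, 6 in PNFLX and 5 in control. The test divides the gap by the group's range, so a small gap can pass in a tight group. Over all 170 groups of 4 of the family 11.2% passed that limit, and 9.57% over all probes tested, where chance gives about 1 in 20. All values are scaled log2 signals, each beside its nearest neighbour in the group.

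In PNFLX, Rpl10 in row 151 read -0.46 in PNFLX 1, against a next value of 4.40, and Rpl21 in row 171 read 1.24 in PNFLX 1, against 5.42. PNFLX 4 was low for Rpl3 in row 3 (-5.33, against -2.82). High samples were PNFLX 1 for Rpl3 in row 20 (3.91, against 3.74), PNFLX 3 for Rps15a in row 25 (5.98, against 5.90) and PNFLX 4 for Rpl36a in row 75 (5.49, against 5.21).

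In control, control 2 was low for Rps13 in row 34 (2.65, against 3.83) and for the saturated Rps20 spot in row 41 (6.09, against 6.36). Control 1 was low for Rpsa in row 40 (2.15, against 3.11) and high for the saturated Rps16 spot in row 158 (6.69, against 6.44). Control 4 was low for Rpl27 in row 182 (2.58, against 4.16). The cause of these single values was not tested.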

How the results depend on the processing

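Over 41 named ribosomal protein probes not saturated throughout a group, 896 differences were recomputed under the alternatives, and 816 kept their direction and their side of the threshold. Settings that only changed which probes were kept could not move a probe's difference, since each probe was fitted on its own. Most of these probes had not passed to begin with, so the count does not measure robustness. The 2 calls in the family held under quantile normalization, with no scaling, with median scaling, with normexp (3 calls, the second Rps26 copy added), in the deposited log2 table and with row and column medians subtracted. The family had 0 calls without the first and last 5 spot rows and without the first and last 20; this second restriction and leaving out the outer spot columns were chosen after seeing the data. It had 1 call with 1 probe a gene, 1 with the replicate block, and 1 to 3 when an array was left out: Rps15a was added without PNFLX 2, Rpl3 without PNFLX 4, and Rps27a could not be estimated without control 1. Over all probes limma made 78 calls, against 50 with normexp, 143 with no scaling, 46 with no filter on dim probes, 47 with probes well above background on all arrays, 0 without the end rows (1236 at an unadjusted p under 0.05), 0 without the first and last 20 rows (879), 24 with row and column medians subtracted, 48 with 1 probe a gene, 13 with the block, and 33 to 104 when an array was left out. Where 1 array was left in a group, it was assumed to vary like the others. The 33 probes higher in PNFLX became 69 with normexp, 74 with no scaling and 21 without the first and last 20 rows (of 72), and the family's median of -0.12 became 0.14 with normexp, 0.18 with no scaling and -0.03 with quantile normalization; leaving out arrays gave 25 to 37 probes and medians between -0.17 and -0.08. The cause of these shifts was not tested. Same-numbered samples did not all correlate best with each other. With the block, Rps27a had 5.51 (adjusted p = 0.214) and Rps26 in row 6 had 4.74 (adjusted p = 0.0046), and differences changed sign for Rpl13a in row 9 (-0.02) and Rpl29 in row 96 (0.06).

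The sign of other differences also turned under other settings. Some were not small at 75th percentile scaling: Rpl3 in row 3 (0.94), Rpl15 in row 17 (-0.75), Rps15 in row 14 (-0.72) and Rpl21 in row 171 (-0.82). None of the differences that turned had passed the threshold. With normexp these were Rpl3 in row 3 (-0.27), Rps15 in row 14 (0.02), Rpl3 in row 20 (0.09), Rpl11 in row 45 (0.32), Rpl5 in row 62 (0.20), Rps19 in row 70 (0.20), Rpl22 in row 80 (0.31), Rpl15 in row 17 (0.77), Rpl36a in row 17 (0.98), Rps15a in row 25 (0.75), Rpl10 in row 44 (0.57), Rpl27 in row 45 (0.21), Rpl18 in row 61 (0.10), Rpl19 in row 85 (0.34), Rps25 in row 108 (0.35), Rps3a in row 129 (0.08), Rpl18 in row 144 (0.16) and Rpl15 in row 182 (-0.79). With no scaling they were Rpl5 in row 62 (0.17), Rps19 in row 70 (0.27), Rpl22 in row 80 (0.29), Rpl36a in row 17 (0.13), Rps15a in row 25 (0.03), Rpl3l in row 30 (0.26), Rpl10 in row 44 (0.12), Rpl27 in row 45 (0.02), Rpl18 in row 61 (0.01), Rpl19 in row 85 (0.25), Rps25 in row 108 (0.29), Rpl18 in row 144 (0.20) and Rps15 in row 183 (0.05). With row and column medians subtracted they were Rpl3 in row 3 (-0.22), Rpl13a in row 9 (-0.15), Rpl5 in row 62 (0.05), Rpl3l in row 15 (-0.23), Rps15a in row 25 (0.01), Rpl3l in row 30 (0.09), Rpl10 in row 44 (0.17), Rpl27 in row 45 (0.17) and Rpl18 in row 61 (0.08). Quantile normalization turned Rpl22 in row 80 (0.01), Rpl3l in row 30 (0.00) and Rps25 in row 108 (0.03), and median scaling turned Rpl22 in row 80 (0.01) and Rps25 in row 108 (0.01). With outlier-flagged spots kept, and likewise in the deposited table, Rpl3 in row 20 had 0.08. When single arrays were left out the sign turned within these ranges: Rpl13a in row 9 (-0.02 to 0.11), Rpsa in row 40 (-0.20 to 0.16), Rps19 in row 70 (-0.13 to 0.06), Rpl22 in row 80 (-0.15 to 0.08), Rpl3l in row 30 (-0.11 to 0.03), Rpl19 in row 85 (-0.11 to 0.04), Rpl21 in row 87 (-0.01 to 0.21), Rpl29 in row 96 (-0.60 to 0.06), Rps25 in row 108 (-0.08 to 0.11), Rpl18 in row 144 (-0.18 to 0.01), Rpl21 in row 171 (-1.22 to 0.24), Rpl15 in row 182 (-0.82 to 0.78) and Rps15 in row 183 (-0.52 to 0.02). Saturation bounds what 26 of the 96 probes can show.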
